A study of Drosophila melanogaster with 12 samples.

Results

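Testes of su(Hw) null males, genotype A2663/2, were compared with testes of the laboratory wild type Canton S, on 3 arrays each of the 12 Affymetrix Drosophila Genome 2.0 arrays of the series. The arrays were chosen by their titles. The 3 arrays of a further wild type, BL15598, were used to see which differences it shared with A2663/2. As labelled, A2663/2 males carried the X-linked alleles y[1] and w[67c23], the insertion P{EPgy2}Amt[EY02782], and the allele su(Hw)[A2663] over the allele su(Hw)[2]. BL15598 males carried the same y and w alleles and the same insertion at Amt, with wild-type su(Hw). Canton S males carried wild-type su(Hw), and no other allele is given for them. A2663/2 therefore differs from Canton S in su(Hw), in y and w, in the P element at Amt and in whatever else separates the stocks, while it shares y, w and the Amt insertion with BL15598. The 3 remaining arrays are of a second null, 2/v, which carries su(Hw)[2] over su(Hw)[v] and, besides the y and w alleles, ct[6] and f[1], but for which no Amt insertion is labelled. All males were 3 days old, and each RNA came from about 100 pairs of testes, so an array is a pool of animals.

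Su(Hw) is a zinc-finger DNA-binding protein, best known for the gypsy insulator, where it works with Mod(mdg4) and CP190. It binds many sites of the genome and is known as a repressor of neuronal genes in the ovary. Females without it are sterile, whereas males are fertile, so the testis is a tissue in which its loss can be studied in a fertile germline. In the testis, spermatogonia divide, become spermatocytes that switch on a large testis-specific programme, and then form spermatids.

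No 2 arrays held the same values, and array medians ran from 211 to 238 signal units in A2663/2, from 190.2 to 219.6 in BL15598 and from 196 to 199 in Canton S. The male germline marker betaTub85D was strong in both groups, at 29977 to 30573 in A2663/2 and 25960.2 to 38804 in Canton S. The marker bam, of late spermatogonia, had 212 to 346 in A2663/2 and 204 to 312 in Canton S. Ranges of Mst87F, can and fzo overlapped as well. The marker dj ran higher in A2663/2, at 13328 to 14595 against 7964 to 9170 in Canton S. So did zpg, at 262 to 324 against 236 to 253. The marker aly ran lower in A2663/2, at 434 to 478 against 560 to 629 in Canton S. The cyst cell marker eya had 640.3 to 948 in A2663/2 and 758 to 884 in Canton S. Another cyst cell marker, tj, lay near or below the median of the 183 control probe sets, 20.4 signal units (the control level), at 14.0 to 17.2 in A2663/2 and 5.84 to 22.0 in Canton S. Canton S replicate 1 was the lowest Canton S array for 38.5% of genes, replicate 2 for 33.2% and replicate 3 for 28.3%. In bulk tissue, fewer cells of a type and less RNA per cell cannot be told apart.

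The targeted gene separated the groups without overlap. Signals of su(Hw) were 64.03, 56.7 and 89.6 in A2663/2, against 864, 885 and 1205 in Canton S, and its 14.1-fold fall (log2 -3.82, SE 0.401, limma adjusted p = 0.000358) did not rest on the choice of wild type, since BL15598 arrays held 1409.8, 1544 and 1223. Where the probes lie relative to the lesions is not stated. The stock markers y (log2 0.77, adjusted p = 0.194) and Amt (log2 0.55, adjusted p = 0.53) did not pass the test, and w has no probe set with that symbol alone. Neither did the germline gene osk (log2 0.14, adjusted p = 0.936) or Rbp9 (log2 0.15, adjusted p = 0.657), an RNA-binding protein gene of neurons and germ cells.

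Over the whole array, 1729 of 18769 probe sets (9.21%) were called A2663/2 against Canton S at a limma adjusted p under 0.05, 1194 higher (6.36%) and 535 lower (2.85%), and 1022 of them (5.45%) changed at least 2-fold. With each gene represented by its brightest probe set, 1286 of 11982 genes (10.7%) were called, 864 higher (7.21%) and 422 lower (3.52%). The balance of directions depended on scaling: 69.1% of the called probe sets were higher on the deposited scale, 45.04% once arrays were centred on their medians and 54.9% after quantile normalization. Centring moved the median change of all probe sets to -0.13 log2, against 0.06 log2 before it. Just inside the threshold lay CG4267 (log2 0.65, adjusted p = 0.04998), and just outside it CG31928 (log2 -2.46, adjusted p = 0.05001).

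The level in BL15598 then sorted the 1286 genes. In 776 of them (60.3%) BL15598 lay nearer to A2663/2, and in 510 (39.7%) nearer to Canton S, on the log2 scale. Of the 1286 genes, 538 (41.8%) were called the same way in BL15598 against Canton S and not in A2663/2 against BL15598, here described as lying with the stock. A further 307 (23.9%) were called the same way against both wild types while the wild types were not called apart, here described as A2663/2 standing apart. Another 318 (24.7%) were called against Canton S alone, with BL15598 separable from neither. The remaining genes had 3 separable levels: BL15598 was in the middle for 35, A2663/2 for 54 and Canton S for 34. The share that lay with the stock was 45.4% among the 702 genes (5.86% of all) changed at least 2-fold, 47.8% among the 247 changed at least 4-fold and 53.5% among the 99 changed at least 8-fold. The share in which A2663/2 stood apart was 27.1%, 25.1% and 29.3% in the same groups. These classes are read from comparisons that share arrays, so they sort the genes and give no further test. For orientation, 979 of 11982 genes (8.17%) were called A2663/2 against BL15598, 601 higher (5.02%) and 378 lower (3.15%), and 1370 (11.4%) BL15598 against Canton S, 779 higher (6.5%) and 591 lower (4.93%).

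**Figure D1:**
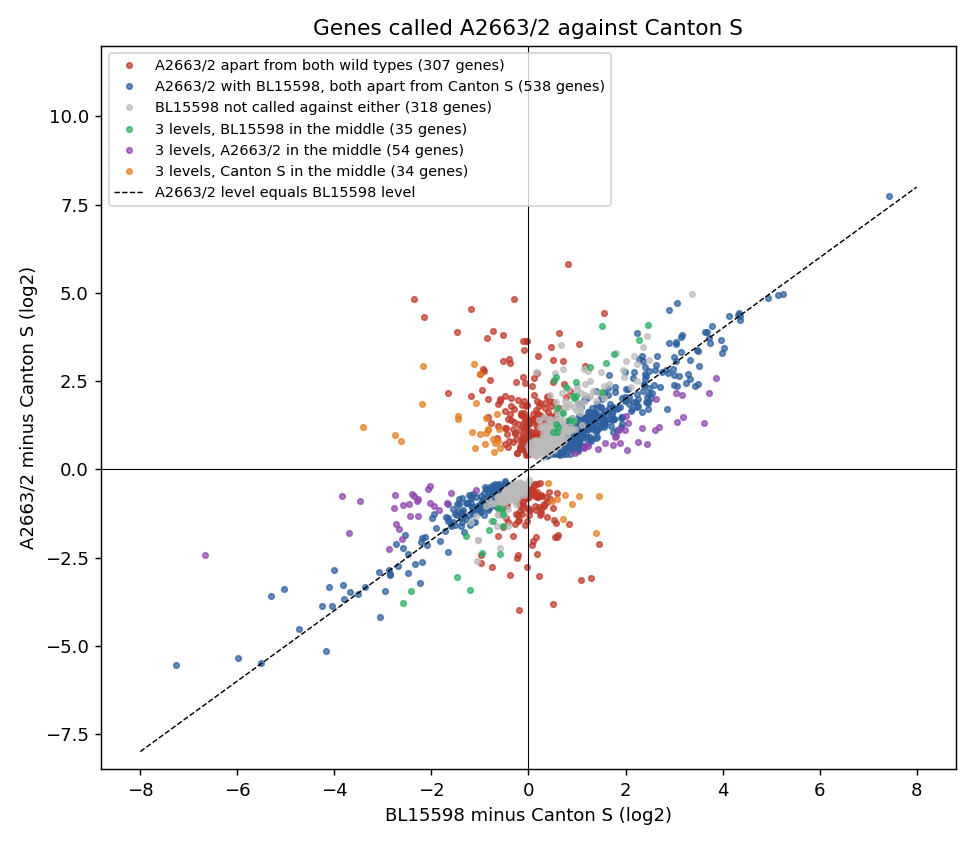
Each point is 1 of the 1286 genes called A2663/2 against Canton S, placed by its log2 difference BL15598 minus Canton S (x axis) and A2663/2 minus Canton S (y axis) and coloured by class. The 538 genes that lie with the stock follow the dashed line, where A2663/2 and BL15598 have the same level, and the 307 genes in which A2663/2 stood apart lie around 0 on the x axis. Both axes subtract the same Canton S arrays.

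Among genes in which A2663/2 stood apart from both wild types, 207 were higher and 100 lower. Their median change was 1.29 log2 for the higher and -1.06 log2 for the lower genes against Canton S. CG13038 had signals of 241, 265 and 280.3 in A2663/2, against 5.76, 7.46 and 12.4 in BL15598 and 1.77, 9.36 and 6.01 in Canton S. All 6 wild-type values lay below the control level, so its rise was at least 12.8-fold against Canton S (log2 5.82, SE 0.525, adjusted p = 0.00014). CG6282 had 997, 1032 and 1285 in A2663/2, against 14.3, 12.01 and 52.7 in BL15598 and 21.9, 55.7 and 87.00 in Canton S, a 23.2-fold rise over Canton S (adjusted p = 0.00123). CG6870 had 2863, 2617 and 2769 in A2663/2, against 85.2, 143 and 109 in BL15598 and 87.4, 223 and 314 in Canton S (15.02-fold, adjusted p = 0.000288). For CG11619 the signals were 3291, 2743 and 2817 in A2663/2, against 169, 107 and 169 in BL15598 and 94.5, 268 and 361 in Canton S (14.1-fold, adjusted p = 0.000473). In each of these genes the 3 null arrays were tight, and Canton S replicate 1 was the lowest Canton S array.

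Named functions in this class were diverse. ND-51L2, related to a subunit of respiratory complex I, had 4542, 5113 and 4945 in A2663/2, against 66.4, 19.5 and 131 in BL15598 and 96.2, 455 and 335 in Canton S (19.9-fold over Canton S, adjusted p = 0.00411). Or22b, an odorant receptor gene, had 779, 425 and 819.8 in A2663/2, against 3.19, 2.56 and 10.5 in BL15598 and 5.97, 51.7 and 37.7 in Canton S (log2 4.84, adjusted p = 0.00471). A single Canton S array of Or22b lay below the control level, so the size is uncertain. The cytochrome P450 gene Cyp6a17 had 386, 377 and 383 in A2663/2, against 20.5, 29.7 and 1.27 in BL15598 and 16.1, 32.5 and 31.7 in Canton S (log2 3.91, adjusted p = 0.0345). That call was lost without any one of the A2663/2 or Canton S arrays, with adjusted p between 0.0719 and 0.105. For ND-51L2, Or22b and Cyp6a17, cross-hybridisation with related genes was not tested. The neuropeptide gene sNPF was dim, at 45.1, 20.98 and 37.8 in A2663/2, against 0.892, 0.479 and 1.95 in BL15598 and 1.91, 1.40 and 0.588 in Canton S, and at least 1.61-fold higher (adjusted p = 0.00298). With values floored at the control level its log2 change was 0.69 (adjusted p = 0.0929).

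Genes lower in A2663/2 than in both wild types included the noncoding RNA lncRNA:CR40465. It had 323, 339 and 248 in A2663/2, against 4323, 4449 and 3869 in BL15598 and 4762, 4411 and 5254 in Canton S, a 15.9-fold fall against Canton S (log2 -3.995, SE 0.308, adjusted p = 6.42e-05). CG4712 had 2844, 2935 and 4102 in A2663/2, against 17347, 19818 and 21379 in BL15598 and 18442, 17009 and 16257 in Canton S (5.30-fold, adjusted p = 6e-05). The values of these 2 genes kept a wide gap between null and wild-type arrays. Zip102B, of a zinc transporter family, had 56.05, 65.00 and 71.4 in A2663/2, against 375, 432 and 483 in BL15598 and 375, 372 and 598 in Canton S (6.85-fold, adjusted p = 7.17e-05). OS9, which encodes a lectin of the endoplasmic reticulum, had 50.2, 29.8 and 20.5 in A2663/2, against 745, 627 and 428 in BL15598 and 212, 346 and 291 in Canton S (8.86-fold, adjusted p = 0.00625). CG10257 fell 8.04-fold (adjusted p = 0.00155), rumpel, of a sodium-coupled solute transporter family, fell at least 3.08-fold (adjusted p = 0.0163; lost without A2663/2 replicate 1 or 3 or Canton S replicate 1, adjusted p 0.0589 to 0.0666), and the brighter probe set of hbt fell 5.68-fold (adjusted p = 0.000127). The dimmer probe set of hbt went the other way without passing (log2 0.61, adjusted p = 0.0828).

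**Figure D2:**
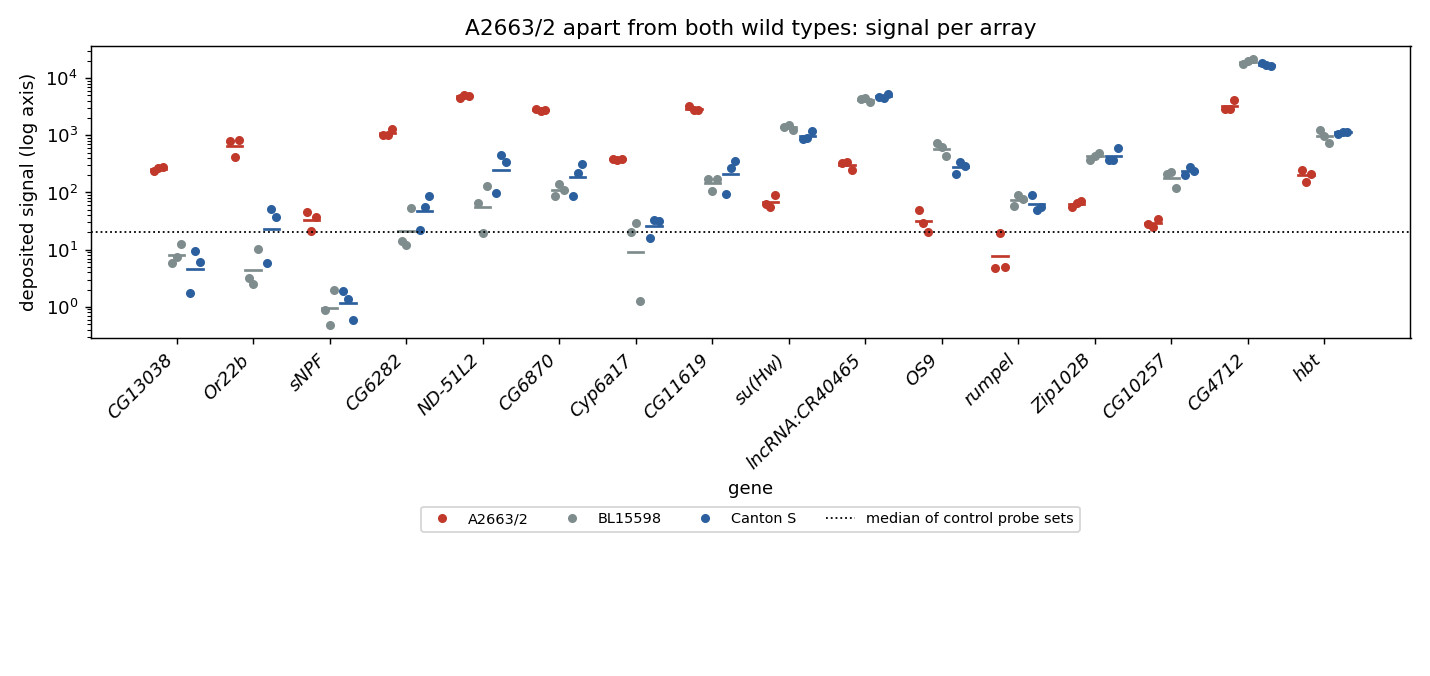
Deposited signal on a log axis for the 8 genes per direction with the greatest changes against both wild types, with a point per array and a line at the geometric mean of each genotype. The 3 A2663/2 arrays lie outside all 6 wild-type arrays in each gene, which the rule for choosing these genes required, and several dim values fall below the dotted control level of 20.4.

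Genes in which A2663/2 lay with BL15598 were 368 higher and 170 lower than in Canton S. CG10700 had 981, 1008 and 1086 in A2663/2 and 1052, 808 and 663 in BL15598, against 1.22, 6.33 and 13.96 in Canton S (at least 50.1-fold, adjusted p = 0.000132). CG14147 had 250.3, 267 and 239 in A2663/2 and 354, 339.6 and 232 in BL15598, against 8.80, 11.1 and 5.28 in Canton S (at least 12.3-fold, adjusted p = 1.41e-05). In both genes the 3 Canton S arrays lay below the control level and the other 6 far above it. CR11023 was far brighter, with 10703, 11259 and 11699 in A2663/2 and 11797, 13214 and 14258 in BL15598, against 72.9, 810.4 and 841 in Canton S (log2 4.93, adjusted p = 0.00344). The ubiquitin ligase gene gol had 2584, 2389 and 2565 in A2663/2 and 2889, 2595 and 1835 in BL15598, against 52.9, 145 and 225 in Canton S (20.9-fold, adjusted p = 0.000275), although its other probe set did not pass (log2 -0.22, adjusted p = 0.48). In CR11023 and gol, Canton S replicate 1 was far below the other Canton S arrays. That array was the lowest of its genotype in 189 of the 368 genes (51.4%). Elovl7, of a fatty acid elongase family, rose at least 5.24-fold (adjusted p = 6.67e-05), the serine protease family gene Phae2 at least 7.40-fold (adjusted p = 0.0155; lost without A2663/2 replicate 1 or 3, adjusted p 0.053 to 0.0565), CG31517 by 4.44 log2 (adjusted p = 0.00694) and tinc by 4.22 log2 (adjusted p = 0.000359). Single Canton S arrays of CG31517 and tinc lay below the control level, and none of the 4 other probe sets of tinc passed.

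Lower with the stock was CG14369, with 132, 78.6 and 223 in A2663/2 and 53.9, 129 and 89.96 in BL15598, against 6302, 4765 and 5314 in Canton S (41.04-fold, adjusted p = 6e-05). CG12498 had 61.8, 51.8 and 144 in A2663/2 and 38.2, 45.2 and 7.66 in BL15598, against 3365, 3536 and 4001 in Canton S (46.96-fold, adjusted p = 0.00239). The mucin gene Muc4B had 70.6, 33.02 and 70.6 in A2663/2 and 46.3, 50.2 and 46.98 in BL15598, against 1148, 1322 and 1329 in Canton S (23.05-fold, adjusted p = 7.17e-05). In these genes Canton S was strong on every array and the y w stock and the null were both weak, although the A2663/2 arrays of CG12498 all lay above those of BL15598. The immunoglobulin-family gene side-II had 106, 105 and 91.3 in A2663/2 and 74.2, 89.1 and 70.4 in BL15598, against 1497, 1459.5 and 1472 in Canton S (14.6-fold, adjusted p = 3.37e-05), while its 5 other, dimmer probe sets did not pass. CG4998 fell 14.5-fold (adjusted p = 0.00274), CG14416 at least 17.2-fold (adjusted p = 0.000225), the odorant receptor gene Or94a at least 3.85-fold (adjusted p = 0.0218; lost without A2663/2 replicate 1 or 3 or Canton S replicate 1 or 3, adjusted p 0.0599 to 0.0856) and CG3526 with a log2 change of -5.50 and a single A2663/2 array below the control level (adjusted p = 0.0108). Of the 8 genes per direction named for this class, CG12498, CG3526, Muc4B and CG14416 lie on the X chromosome, and all 4 were lower than in Canton S. Over the whole class, 54 of the 1869 measured genes of the X lay with the stock, against 538 of all 11982 genes.

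**Figure D3:**
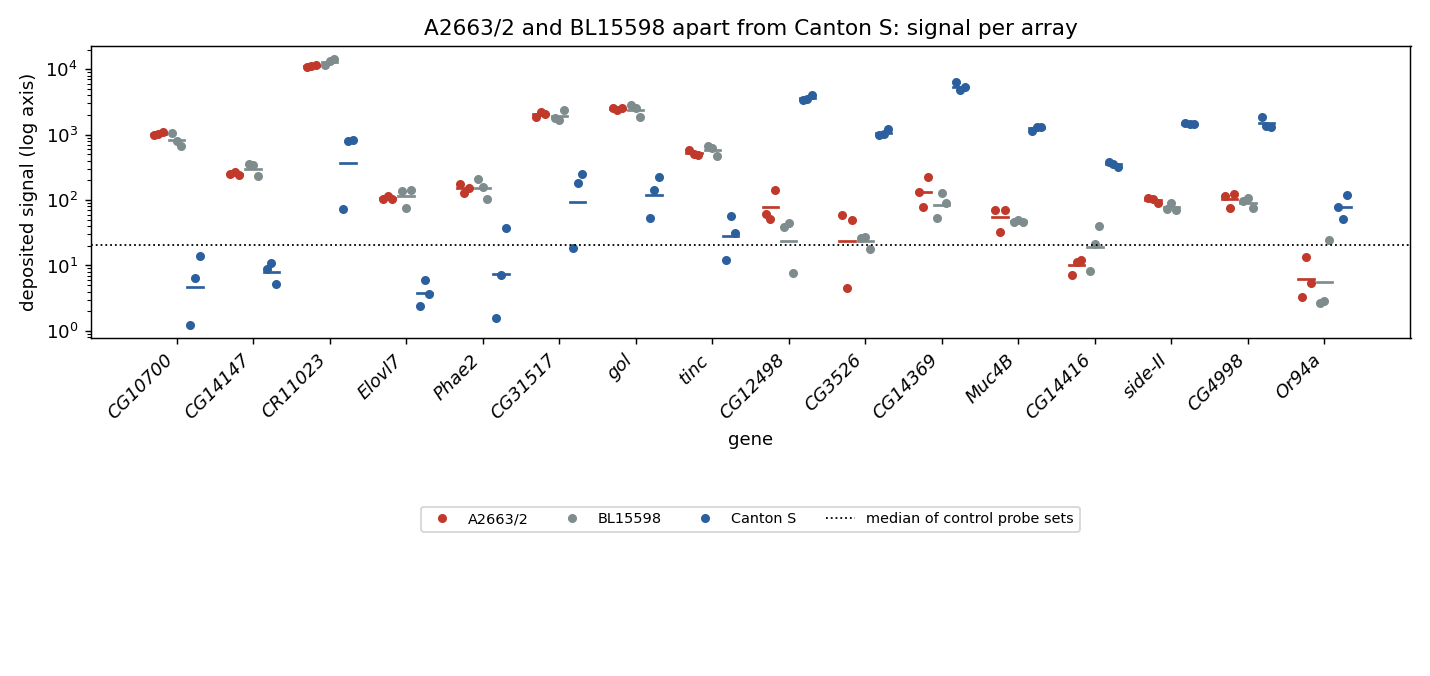
Deposited signal on a log axis for the 8 genes per direction with the greatest changes shared by A2663/2 and BL15598 against Canton S, with a point per array and a line at the geometric mean of each genotype. The Canton S arrays lie apart from the others, as the rule for choosing these genes required, and A2663/2 and BL15598 arrays overlap except in CR11023, CG12498 and side-II. Canton S replicate 1 is the leftmost of each 3 blue points.

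Some genes took 3 separable levels with BL15598 in the middle. CG14826 had 1895, 1783 and 1773 in A2663/2, 734, 662 and 418 in BL15598 and 69.8, 128 and 135 in Canton S, with changes of 4.09 log2 against Canton S (adjusted p = 3.37e-05) and 1.63 log2 against BL15598 (adjusted p = 0.00616). CG17816 had 877, 1115 and 1227 in A2663/2, 404, 397 and 404 in BL15598 and 84.1, 162 and 169.9 in Canton S (3.01 log2 against Canton S, adjusted p = 9.25e-05, and 1.40 log2 against BL15598, adjusted p = 0.00972). Cyp6a23, a close paralog of Cyp6a17, went the opposite way, with 129, 126 and 196 in A2663/2, 646, 778 and 651 in BL15598 and 1855, 1457 and 1462 in Canton S (-3.43 log2 against Canton S, adjusted p = 4.97e-05, and -2.23 log2 against BL15598, adjusted p = 0.000565). For these genes Canton S as the control gave a larger change than BL15598 did, which follows from BL15598 lying in the middle. The lipase family gene Lip1 (3.26 log2, adjusted p = 0.000619) and CG17234 (4.05 log2, adjusted p = 0.00014) rose against Canton S in the same stepped way. CG9294 (-3.05 log2, adjusted p = 0.000285), CG18682 (-3.79 log2, adjusted p = 6e-05) and the RING finger gene Rnf11 (-3.46 log2, adjusted p = 5.84e-05) fell. The 2/v level of Rnf11 was 5102 ± 409.9 (SD, n = 3), above both A2663/2 and BL15598 and below Canton S, and its other probe set did not pass against Canton S (log2 -0.16, adjusted p = 0.692).

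Further genes were called A2663/2 against BL15598 but not against Canton S, with BL15598 as the odd genotype. In 336 genes, A2663/2 and BL15598 were called apart, BL15598 and Canton S were called apart in the opposite direction, and A2663/2 against Canton S was not called. CG42792 had 369, 398 and 401 in A2663/2 and 307, 309 and 362 in Canton S, with BL15598 at 5.62, 5.62 and 3.70, below the control level. CG3397 had 584, 499 and 518 in A2663/2 and 750.0, 737 and 755 in Canton S, with BL15598 at 12.1, 3.77 and 7.41. Acyp, an acylphosphatase gene, had 12784, 13049 and 12057 in A2663/2 and 12565, 13454 and 12199 in Canton S, with BL15598 at 57.6, 251 and 867. In these genes BL15598 was the genotype that stood apart, and 2/v, at 366 ± 37.2, 453 ± 39.96 and 13899 ± 622 (SD, n = 3), lay near A2663/2 and Canton S. The odorant-binding protein gene Obp57a was 0.18 log2 against Canton S (adjusted p = 0.835) and 5.40 log2 against BL15598 (adjusted p = 2.77e-05), and CG30325 was 0.09 log2 (adjusted p = 0.933) and 5.16 log2 (adjusted p = 7.94e-05). With each array centred on its median the changes of Obp57a and CG30325 against Canton S, which had no call, turned to -0.01 and -0.09 log2. On the other side, phyl, which encodes an adaptor of photoreceptor and sense organ fate, had 443, 589 and 411 in A2663/2 and 461, 525 and 532 in Canton S, with BL15598 at 4434, 4351 and 4392. CG13946, CG8837, CG42819 and CG13640 likewise were highest in BL15598 among the 4 genotypes, with changes of -4.15, -4.55, -2.75 and -3.63 log2 in A2663/2 against BL15598 (adjusted p = 7.47e-05, 0.00102, 7.47e-05 and 0.00671).

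The second null was read beside these calls. The 2/v and BL15598 means share no array with the A2663/2 and Canton S means. Both comparisons came from a joint fit over all arrays, however, so they share the residual variance of each probe set. For su(Hw) the SE was 0.401 in both. A probe set of low variance is thus more readily called in both, in either direction. The shares of calls that follow are therefore not an independent check. Of the 864 genes called higher in A2663/2 than in Canton S, 269 (31.1%) were called higher in 2/v than in BL15598 and 75 (8.68%) lower. Over all genes, 823 (6.87%) were called higher in 2/v against BL15598, of which those 269 make up 32.7%. Of the 422 genes called lower, 120 (28.4%) were called lower in 2/v against BL15598 and 46 (10.9%) higher, where 678 genes (5.66%) were lower over all, of which the 120 make up 17.7%. Calls in the opposite direction, 8.68% and 10.9%, also lay above the 5.66% lower and 6.87% higher of all genes. The median change in 2/v against BL15598 was 0.30 log2 for the higher and -0.20 log2 for the lower genes, with 0.01 log2 for all genes. Among the 8 higher genes named above for A2663/2 standing apart, the 2/v mean lay above the A2663/2 mean for CG13038 (698 ± 69.03), CG6282 (1913 ± 26.2), CG11619 (4875 ± 292), CG6870 (3631 ± 46.2), ND-51L2 (5041 ± 91.5) and Or22b (984 ± 284, SD, n = 3 each). It lay below for Cyp6a17 (342 ± 16.4) and for sNPF (14.2 ± 9.19), which had 2 of 3 arrays of 2/v below the control level. The 8 lower genes named there, which include su(Hw), each had a lower mean in 2/v than in A2663/2. Examples were lncRNA:CR40465 (53.1 ± 25.7) and CG4712 (693 ± 122). For rumpel, all A2663/2 and 2/v arrays lay below the control level, so that order cannot be read. All 2/v arrays of CG10257 and 2 of 3 of OS9 lay below it too. Other lower genes of the class had a higher mean in 2/v, such as Taf12L (4444 ± 349) and Gr28a (198 ± 5.54), named from the gene lists. Over the whole class the median change against BL15598 of the lower genes was -0.99 log2 in 2/v and -1.08 log2 in A2663/2. Both medians subtract the same BL15598 arrays, and the class required a call of A2663/2 against BL15598, so the 2 medians are not independent. Differences between 2/v and A2663/2 were not tested. Both nulls carry su(Hw)[2], so chromosome regions that came with it are shared as well.

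By chromosome arm, calls against Canton S were fewest on the X, with 133 of 1869 genes (7.12%), and ran from 10.5% on 3R to 12.4% on 2L among the other large arms. A2663/2 against BL15598 was called for 242 of 2204 genes (10.98%) on 2L and 260 of 2427 (10.7%) on 2R, but for 162 of 2344 (6.91%) on 3L, 194 of 2973 (6.53%) on 3R and 103 of 1869 (5.51%) on the X. Genes that lay with the stock, 538 of 11982 over all, numbered 136 of 2344 on 3L and 154 of 2973 on 3R. They numbered 106 of 2204 on 2L, 81 of 2427 on 2R and 54 of 1869 on the X. Genes in which A2663/2 stood apart, 307 of 11982 over all, numbered 46 on 3L, 59 on 3R, 68 on 2L, 88 on 2R and 38 on the X. Differences between arms were not tested. Near su(Hw) itself, which lies on 3R, 14 of the 100 nearest measured genes, 50 on each side in the Release 6 plus ISO1 MT order, were called against Canton S, 6 against BL15598 and 11 in BL15598 against Canton S. Those shares of 14 and 6 in 100 stand beside backgrounds of 10.7% and 8.17%.

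**Figure D4:**
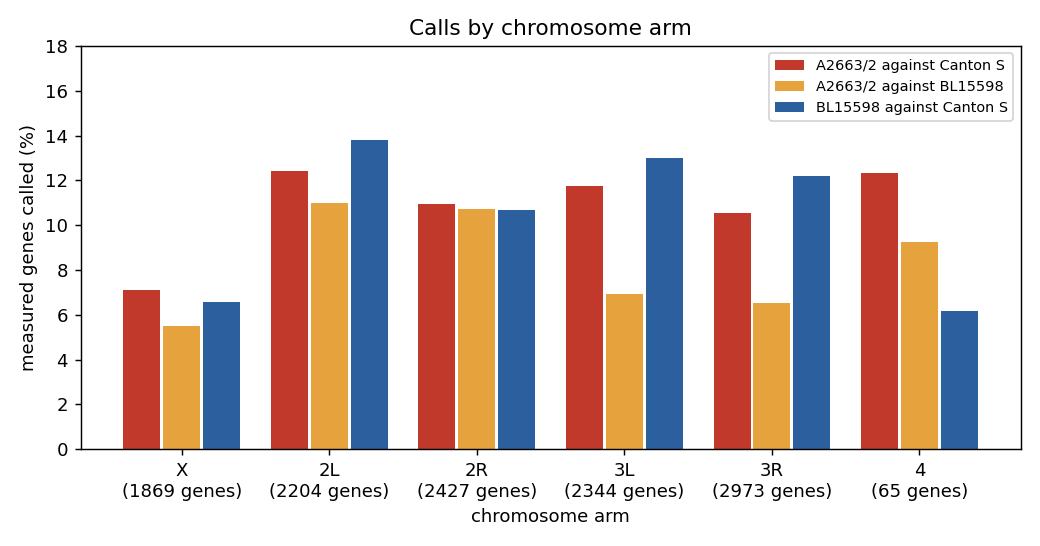
Share of measured genes called, in percent, for each chromosome arm with at least 50 measured genes and each of the 3 comparisons among A2663/2, BL15598 and Canton S. Calls A2663/2 against BL15598 are more frequent on 2L and 2R (10.98% and 10.7%) than on 3L, 3R and X (6.91%, 6.53% and 5.51%).

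Genes of the nervous system, which Su(Hw) is known to repress in the ovary, were read as lists and set against the 7.21% of all genes that were higher and the 3.52% that were lower, as are all lists that follow. Of 25 neuronal ion channel genes measured, 9 rose, 0 fell and 16 did not pass, with a median change of 0.65 log2 against 0.04 log2 for all genes. Over the alternatives the count ran from 5 higher and 1 lower, with probe sets averaged by gene, to 12 higher and 1 lower, with array weights. The mean log2 signal of the list ran from 7.49 to 7.62 in A2663/2, from 6.99 to 7.26 in BL15598 and from 6.46 to 6.54 in Canton S, so the 3 genotypes did not overlap. Against BL15598, 3 members rose and 1 fell, and between the wild types 5 were higher and 1 lower in BL15598. Read by class, A2663/2 stood apart for cac and stol, while Ca-alpha1D, Ca-alpha1T, NaCP60E and Elk lay with the stock. Sh, Shaw and sei were called against Canton S alone.

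The calcium channel gene cac had 346, 403 and 419 in A2663/2, against 140.4, 191 and 139 in BL15598 and 139, 170.0 and 169 in Canton S (2.45-fold, log2 1.29, SE 0.179, adjusted p = 0.00179). Another calcium channel gene, Ca-alpha1D, had 1343, 1004 and 974 in A2663/2 and 1079.9, 979.8 and 891 in BL15598, against 143, 164 and 270.0 in Canton S (5.92-fold, adjusted p = 0.000403). These 2 genes show the 2 patterns side by side: both were higher than in Canton S, cac with BL15598 at the Canton S level and Ca-alpha1D with BL15598 at the A2663/2 level. The potassium channel gene Shaw rose 1.76-fold (adjusted p = 0.00212), with BL15598 in between at 1961, 2319 and 2256. The calcium channel subunit gene stol rose at least 2.94-fold (adjusted p = 0.00148). With probe sets averaged by gene, the calls of cac (log2 0.47, adjusted p = 0.323), Shaw (log2 0.51, adjusted p = 0.152) and stol (log2 1.44, adjusted p = 0.102) were lost.

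In the axon guidance and synaptic adhesion list, 26 genes were measured, of which 5 rose, 0 fell and 21 were uncalled (median 0.22 log2). Single arrays left out gave 3 to 5 higher and 0 lower, with fewest higher without A2663/2 replicate 1 or 2. Nrx-1, the neurexin gene, had 1025, 969 and 1033 in A2663/2, against 239.7, 161 and 282 in BL15598 and 253, 315 and 211 in Canton S (3.94-fold, adjusted p = 0.000691). Among its neuroligin partners, Nlg3 had 315, 350.4 and 449 in A2663/2 and 546, 363 and 429 in BL15598, against 98.6, 104 and 75.1 in Canton S (adjusted p = 0.00179). Another probe set of Nlg3 rose as well (log2 2.95, adjusted p = 0.00889). The others did not pass (log2 0.18, adjusted p = 0.886, and log2 -0.47, adjusted p = 0.844). Nlg3 thus lay with the stock, whereas Nlg2 had 504, 454 and 354 in A2663/2, against 128, 97.2 and 217 in BL15598 and 169.9, 188 and 221 in Canton S (2.25-fold, adjusted p = 0.0265). The call of Nlg2 was lost with centring (adjusted p = 0.0749) and after quantile normalization (adjusted p = 0.0583), and when probe sets were averaged Nlg2 (adjusted p = 0.199) and Nlg3 (adjusted p = 0.0958) both lost theirs. The call of Nlg2 was also lost without A2663/2 replicate 1 or 2 or Canton S replicate 1 or 2, adjusted p 0.0769 to 0.0987. Dscam3, an immunoglobulin-family cell adhesion gene, rose 2.61-fold with the stock (adjusted p = 0.00468).

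Synaptic vesicle genes numbered 22, with 2 that rose, 1 that fell and 19 uncalled (median 0.15 log2), which is 9.09% higher and 4.55% lower. Single arrays left out gave 1 to 3 higher and 0 to 1 lower, with fewest higher without A2663/2 replicate 1. Rph, the rabphilin gene, had 2681, 2247 and 2134 in A2663/2, against 400.2, 364 and 517 in BL15598 and 349, 396 and 435 in Canton S (5.98-fold, log2 2.58, SE 0.198, adjusted p = 6.39e-05), and the synaptotagmin gene Sytalpha rose 1.97-fold (adjusted p = 0.0134; lost without A2663/2 replicate 1, adjusted p = 0.0561). In both genes A2663/2 stood apart from both wild types. The probe set of Rim, which organises the active zone, fell 1.41-fold (adjusted p = 0.0465), but another probe set of it rose (log2 1.15, adjusted p = 0.0268). The call of the first was lost without A2663/2 replicate 2 or 3, BL15598 replicate 1, 2 or 3 or Canton S replicate 1, 2 or 3, adjusted p 0.0526 to 0.155. Neurotransmitter genes numbered 34, with 4 that rose, 2 that fell and 28 uncalled (median 0.30 log2), which is 11.8% higher and 5.88% lower. The balance turned with scaling, at 3 higher and 3 lower with centring and 3 higher and 4 lower after quantile normalization. Single arrays left out gave 2 to 5 higher and 1 to 3 lower, with fewest higher without A2663/2 replicate 1 or Canton S replicate 2. The dopamine transporter gene DAT had 46.6, 27.1 and 26.03 in A2663/2 and 41.4, 32.8 and 50.7 in BL15598, against 197, 212 and 211 in Canton S (6.46-fold, adjusted p = 0.00103), a fall shared with the stock. The GABA receptor gene GABA-B-R3 rose 1.66-fold with the stock (adjusted p = 0.00562). The acetylcholine receptor subunit gene nAChRbeta2 rose 1.69-fold apart from both wild types (adjusted p = 0.00997), and the receptor gene Lcch3 fell 1.89-fold against Canton S alone (adjusted p = 0.026; lost without A2663/2 replicate 1, 2 or 3 or Canton S replicate 1 or 3, adjusted p 0.0633 to 0.0902).

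**Figure D5:**
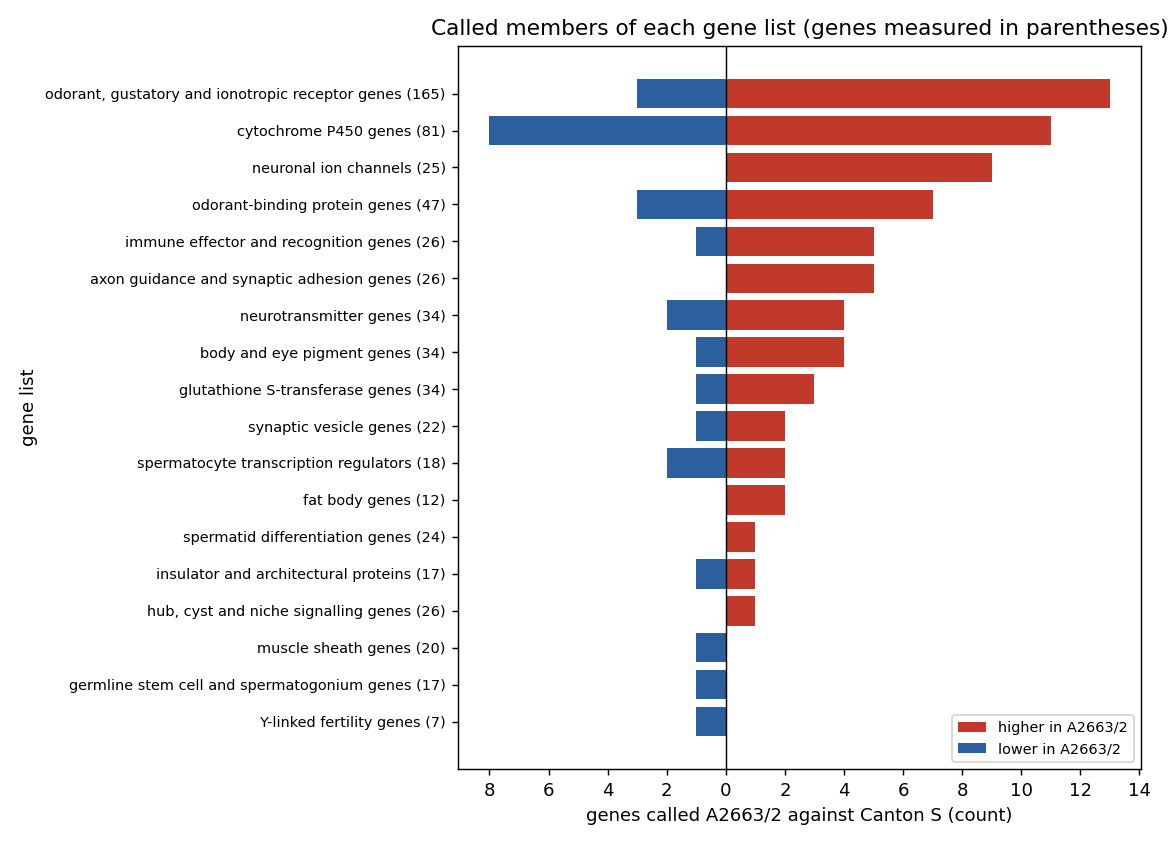
Number of genes in each list called higher (bars to the right) or lower (bars to the left) in A2663/2 than in Canton S, for the 18 of 24 lists with a call. Neuronal ion channel genes had 9 higher and 0 lower of 25, while cytochrome P450 genes had calls both ways, 11 higher and 8 lower of 81.

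Chemosensory and detoxification genes, families with many close paralogs whose probes were not tested for cross-hybridisation, had calls in both directions. Of 81 cytochrome P450 genes, 11 rose (13.6%), 8 fell (9.88%) and 62 did not pass, and the balance turned with scaling, at 8 higher and 14 lower with centring and 11 higher and 12 lower after quantile normalization. With single arrays left out, 6 to 12 were higher, with fewest without A2663/2 replicate 1 or Canton S replicate 2, and 5 to 10 lower, with fewest without Canton S replicate 2 or 3. Cyp28d1 had 910.3, 939.6 and 959 in A2663/2, against 77.7, 69.9 and 113 in BL15598 and 97.1, 92.8 and 82.7 in Canton S (10.3-fold, log2 3.37, SE 0.177, adjusted p = 1.41e-05). Cyp4p1 had 229.5, 311 and 314 in A2663/2 and 213, 279 and 245 in BL15598, against 3561, 2800.1 and 3044 in Canton S (11.1-fold, log2 -3.47, SE 0.183, adjusted p = 1.41e-05). The first was higher than in both wild types, and the second was low in the null and its stock alike. Cyp6d4 rose 3.02-fold apart from both wild types (adjusted p = 8.09e-05). By class, 8 P450 genes lay with the stock, 6 had A2663/2 apart, 3 were called against Canton S alone, and 5 further genes that were not called against Canton S had BL15598 as the odd genotype. Of 34 glutathione S-transferase genes, 3 rose (8.82%), 1 fell (2.94%) and 30 did not pass. GstZ2 had 159.9, 109 and 122 in A2663/2, against 6.91, 14.05 and 9.67 in BL15598 and 16.2, 13.9 and 28.4 in Canton S (at least 6.30-fold, adjusted p = 0.000866), GstD11 rose 2.28-fold with the stock (adjusted p = 0.0108), GstE14 rose 2.15-fold (adjusted p = 0.0266; lost without A2663/2 replicate 1 or 2 or Canton S replicate 1, adjusted p 0.0742 to 0.101) and GstE10 fell 5.14-fold with BL15598 in the middle (adjusted p = 0.000436).

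Of 165 odorant, gustatory and ionotropic receptor genes, 13 rose (7.88%), 3 fell (1.82%) and 149 did not pass, close to the 7.21% and 3.52% of all genes, and 13 members lay below the control level on all 6 A2663/2 and Canton S arrays. Single arrays left out gave 8 to 17 higher and 2 to 4 lower, with fewest higher without A2663/2 replicate 3. Gr32a, a gustatory receptor gene, had 153, 154 and 151 in A2663/2 and 165, 164 and 125 in BL15598, against 1037, 973 and 1332 in Canton S (7.23-fold, adjusted p = 2.64e-05). Gr93d rose 2.71-fold with the stock (adjusted p = 0.000291), while the ionotropic receptor gene Ir76a rose 2.31-fold (adjusted p = 0.000204) and Gr28a fell 2.77-fold (adjusted p = 0.000447) apart from both wild types. Of 47 odorant-binding protein genes, 7 rose (14.9%), 3 fell (6.38%) and 37 did not pass. Single arrays left out gave 4 to 8 higher and 2 to 3 lower, with fewest higher without A2663/2 replicate 1, 2 or 3 or Canton S replicate 2. Obp56i had 8755, 8594 and 8329 in A2663/2 and 7201, 7052 and 5378 in BL15598, against 2090.1, 2474 and 2818 in Canton S (3.50-fold, adjusted p = 7.89e-05). Obp56a had 851, 923 and 1086 in A2663/2, against 325, 272 and 328 in BL15598 and 228, 265 and 291 in Canton S (3.65-fold, adjusted p = 6.39e-05), and Obp99b, also a fat body gene, rose 5.57-fold (adjusted p = 0.000636). Obp58c fell to 561, 629 and 633 in A2663/2, against 2330.2, 2175 and 1903 in BL15598 and 3114, 3238 and 3211 in Canton S (5.25-fold, adjusted p = 1.41e-05). Obp56i lay with the stock, A2663/2 stood apart for Obp56a and Obp99b, and Obp58c had BL15598 in the middle.

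Immune genes had calls in both directions. Of 26 measured, 5 rose (19.2%), 1 fell (3.85%) and 20 did not pass, and 3 of the calls lay with the stock, 3 against Canton S alone and 0 apart from both wild types. With centring 2 rose and 1 fell, as without A2663/2 replicate 1 or Canton S replicate 1 or 2. The drosomycin-like peptide gene Drsl3 had 1530.5, 1395 and 1467 in A2663/2 and 1139, 1086 and 698 in BL15598, against 106, 115 and 103 in Canton S (13.5-fold, adjusted p = 1.41e-05). Its relative Drsl5 went the other way, with 552, 506 and 864 in A2663/2 and 431, 417 and 448 in BL15598, against 6487, 5487 and 6292 in Canton S (9.75-fold, adjusted p = 9.05e-05). Drsl2 rose 6.55-fold (adjusted p = 0.000744) and the bomanin gene BomS2 2.30-fold, a call lost with centring (adjusted p = 0.0515) and also lost without A2663/2 replicate 1 or 3 or Canton S replicate 1, 2 or 3, adjusted p 0.0547 to 0.0974. The 2/v level of Drsl3, 296 ± 16.8 (SD, n = 3), lay between those of Canton S and A2663/2. Of 34 body and eye pigment genes, among which y and w mark the stocks, 4 rose (11.8%), 1 fell (2.94%) and 29 did not pass. Single arrays left out gave 1 to 5 higher and 1 lower, with fewest higher without A2663/2 replicate 1. The xanthine dehydrogenase gene ry had 135, 199 and 175 in A2663/2 and 137, 188 and 178 in BL15598, against 349, 315 and 374 in Canton S (2.06-fold, adjusted p = 0.00585). The GTP cyclohydrolase gene Pu rose with the stock (log2 2.03, adjusted p = 0.0128; lost without A2663/2 replicate 1 or 3, adjusted p 0.0502 to 0.0533), the pigment gene e rose 1.74-fold against Canton S alone (adjusted p = 0.0173; lost without A2663/2 replicate 1 or 2 or Canton S replicate 2, adjusted p 0.0559 to 0.0661), and yellow-e2 rose 1.81-fold apart from both wild types (adjusted p = 0.00336).

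The genes of spermatogenesis were read against the 10.7% of all genes called and the 24.5% at an unadjusted p under 0.05. Spermatocyte transcription regulators numbered 18, with 2 that rose (11.1%), 2 that fell (11.1%) and 14 uncalled. For a pair of almost identical homeobox genes, A2663/2 stood apart in opposite directions, with achi at 574, 589.9 and 676 in A2663/2, against 60.4, 98.8 and 111 in BL15598 and 94.02, 252 and 155 in Canton S (adjusted p = 0.00524), and vis at 4106, 3744 and 3554 in A2663/2, against 6989, 6298 and 7226 in BL15598 and 7513, 7818 and 7666 in Canton S (adjusted p = 0.000862). Cross-hybridisation between achi and vis was not tested. The bromodomain gene tbrd-3 rose 2.16-fold (adjusted p = 0.00157) and was classed with the stock, but BL15598 lay in between. A2663/2 against BL15598 was 0.53 log2 (adjusted p = 0.0753, no overlap of arrays), and BL15598 against Canton S 0.585 log2 (adjusted p = 0.0396). The testis TAF gene Taf12L fell 1.66-fold (adjusted p = 0.007), which did not pass when its probe sets were averaged (adjusted p = 0.393). Of 24 spermatid differentiation genes 1 rose, the sperm tail gene dj, by 1.65-fold with the stock (adjusted p = 0.00497), and centring ended that call (adjusted p = 0.0644). Among the 14 post-meiotically transcribed cup and comet genes limma called 0, and 1 at an unadjusted p under 0.05. Of 17 germline stem cell and spermatogonium genes 1 fell, mei-P26, which restrains germline growth, by 1.42-fold (adjusted p = 0.0276). That call was lost without A2663/2 replicate 2 or 3 or Canton S replicate 1 or 2, adjusted p 0.072 to 0.109. Of 25 piRNA pathway genes limma called 0, and 7 (28%) at an unadjusted p under 0.05, close to the share of all genes, but 3 were called lower with centring and 3 after quantile normalization. Of 26 hub, cyst and niche signalling genes 1 rose, the repressor gene ken, with 1709.9, 1853 and 1576 in A2663/2, against 1030.3, 851 and 1186 in BL15598 and 777, 800.5 and 987 in Canton S (2.01-fold, adjusted p = 0.00455), and with centring or quantile normalization 4 others were called lower. Of 7 Y-linked fertility genes 1 fell, the dynein gene kl-2, by 1.45-fold (adjusted p = 0.029), which did not pass when its probe sets were averaged (log2 -0.02, adjusted p = 0.967) and was lost without A2663/2 replicate 1 or 2 or Canton S replicate 1 or 3, adjusted p 0.0676 to 0.107. Of 14 heat shock genes limma called 0, and 1 at an unadjusted p under 0.05.

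Insulator and architectural proteins numbered 17: Ibf2 rose, su(Hw) fell as given above, and 15 were uncalled. Ibf2, which encodes an insulator-binding factor, had 6242, 7232 and 7412 in A2663/2 and 5705, 5603 and 7024 in BL15598, against 3648, 3673 and 4388 in Canton S (1.79-fold, adjusted p = 0.00378), so it lay with the stock.

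Markers of tissues dissected with the testis were read beside these results. Of 20 muscle sheath genes 1 fell, Mp20, with 1151, 1088 and 1309 in A2663/2, against 2045, 2346 and 1894 in BL15598 and 2009, 2404 and 2330.0 in Canton S (1.90-fold, adjusted p = 0.00156). The mean log2 signal of that list ran from 9.73 to 9.75 in A2663/2, from 9.96 to 10.03 in BL15598 and from 9.97 to 10.03 in Canton S. Of 23 accessory gland proteins limma called 0, and 1 at an unadjusted p under 0.05, while their mean log2 signal ran from 10.07 to 11.15 in A2663/2 and from 9.01 to 10.59 in Canton S. Of 12 fat body genes 2 rose, Obp99b and Lsp2 (1.67-fold, adjusted p = 0.0442), with mean log2 signals of 8.65 to 9.06 in A2663/2 and 8.34 to 8.59 in Canton S, and the call of Lsp2 ended with centring (adjusted p = 0.156) and quantile normalization (adjusted p = 0.129). It was also lost without A2663/2 replicate 1, 2 or 3, BL15598 replicate 2 or Canton S replicate 1, 2 or 3, adjusted p 0.0575 to 0.151. Of 16 hemocyte genes limma called 0, and 1 at an unadjusted p under 0.05 (mean log2 signal 6.89 to 7.32 in A2663/2 and 6.33 to 7.03 in Canton S). For the ejaculatory duct and bulb, 4 genes were measured and limma called 0, and 0 at an unadjusted p under 0.05 (4.57 to 7.70 in A2663/2 and 5.55 to 6.40 in Canton S). The part of these tissues in the results above was not tested.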

How the data were processed

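The values are the probe set signals deposited by the authors, an intensity on a linear scale, for 12 arrays of 18769 probe sets and 183 controls. The submitters' processing notes name RMA and Partek 6.5. Every array has a mean of 1500.03 after trimming 2% from each end, which RMA does not give, so the scaling behind the deposited intensity is not known here. The log2 of the intensity was fitted, with no offset, as 4 genotype means over all 12 arrays (limma 3.58.1, R 4.3.3). This leaves 8 residual degrees of freedom. Two-sided p-values were adjusted over the 18769 probe sets by the Benjamini-Hochberg method, and a call is an adjusted p under 0.05. The labels call the replicates biological. Having 3 arrays per genotype limits precision, and replicates had a median SD of 1.22 log2 in the dimmest 10% of probe sets and 0.118 in the brightest 10%.

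Of the probe sets, 13647 had 1 symbol in the platform annotation, 402 several and 4720 none. Symbols were updated through RefSeq genes of Release 6 plus ISO1 MT, leaving 11982 genes, each represented by its brightest probe set. A fold is a ratio of geometric means. Where the dimmer group lay below 20.4, the median of the control probe sets, the fold is a lower bound over that level.

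Members, gene lists, the rule for named genes and the alternatives were chosen with earlier results of these data known. Named are the fixed genes su(Hw), Amt, y, osk and Rbp9, the genes with the greatest change of each class and direction (8 apart, 8 with the stock, 4 with BL15598 in the middle, 5 that only BL15598 separates, 3 with A2663/2 in the middle), and up to 4 called members per list. For the classes, brighter arrays had to exceed the control median and the groups of each called contrast could not overlap. The code was tested on simulated data before use. In probe sets above median brightness, the fit recovered 68% of simulated shifts of 1 log2 and 96% of those of 2 log2. Below median brightness it recovered 4% and 20%, so a dim gene without a call may still differ. Alternatives were other scalings, filters, floors, priors, array weights, pairwise fits, averaged probe sets, a replicate block and single arrays left out. A fit without the 2/v arrays was also run.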

Additional observations from a re-analysis of the deposited data

Results flagged for a closer look

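A2663/2 lay between the 2 wild types, called apart from both in opposite directions, for the 6 genes below, so the sign of the null's difference depended on the wild type used. In each, BL15598 against Canton S was called too, which the rule for choosing these genes required, so it gives no further test.

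CG33543 had 192, 139 and 171 in A2663/2, 456, 546 and 459 in BL15598 and 49.7, 33.9 and 29.3 in Canton S, a change of 2.17 log2 against Canton S (limma adjusted p = 0.000955) and -1.55 log2 against BL15598 (adjusted p = 0.00831). CG6435 had 234, 139.8 and 161 in A2663/2, 674, 642 and 427 in BL15598 and 55.9, 56.5 and 76.3 in Canton S (1.49 log2 against Canton S, adjusted p = 0.0045, and -1.71 against BL15598, adjusted p = 0.00259). Arpc1, a subunit gene of the actin-nucleating Arp2/3 complex, had 874, 992 and 847 in A2663/2, 3696, 2989 and 2316 in BL15598 and 303, 328 and 446 in Canton S (1.35 log2 against Canton S, adjusted p = 0.00198, and -1.71 against BL15598, adjusted p = 0.000661). These 3 genes were lowest in Canton S and highest in BL15598.

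The reverse order held for the homeobox gene HGTX, with 372, 381 and 332 in A2663/2, 84.05, 113 and 97.6 in BL15598 and 1380.4, 1273 and 1162 in Canton S (-1.81 log2 against Canton S, adjusted p = 5.65e-05, and 1.89 against BL15598, adjusted p = 4.17e-05). CG31269 had 264, 137 and 243 in A2663/2, 18.9, 12.6 and 5.69 in BL15598 and 1055, 1123 and 1165 in Canton S (-2.43 log2 against Canton S, adjusted p = 0.0254, and 4.22 against BL15598, adjusted p = 0.00183). Its call against Canton S was lost without any one of the 6 arrays of that comparison, with adjusted p between 0.0542 and 0.0914. The calcium-binding protein gene Scp1 had 405, 458 and 778 in A2663/2, 258, 256 and 184 in BL15598 and 1588, 1195 and 1869 in Canton S (-1.54 log2 against Canton S, adjusted p = 0.0089, and 1.19 against BL15598, adjusted p = 0.0387).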

How the results depend on the processing

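The fall of su(Hw) kept its direction and its call under every alternative run, at -3.82 log2 as reported and -4.01 to -3.67 log2 with single arrays of A2663/2, BL15598 or Canton S left out. Of 1729 calls A2663/2 against Canton S (1194 higher, 535 lower, 1022 at least 2-fold), 858 (620 higher, 238 lower, 676 at least 2-fold) passed an adjusted p under 0.01, 1134 (791 higher, 343 lower) were made with each pair of genotypes fitted alone, and 997 were lower with centring and 863 after quantile normalization. Leaving out single arrays gave 1121 to 2014 calls, 759 to 1365 higher, 351 to 649 lower and 819 to 1070 at least 2-fold, with 1158 calls without A2663/2 replicate 1, 1180 without its replicate 2 and 1121 without its replicate 3. Without Canton S replicate 1, 2 or 3 there were 1376, 1292 and 1438 calls. Probe sets with A2663/2 apart from both wild types numbered 414, and 231 with pairs fitted alone and 269 to 378 with single arrays left out. Probe sets that lay with the stock numbered 697, and 287 with pairs and 518 to 734 with single arrays left out. Those that only BL15598 separates numbered 413, and 171 with pairs and 297 to 374 with single arrays left out. With the replicate block, limma gave 1512 calls A2663/2 against Canton S; deviations of same-numbered A2663/2 and Canton S arrays correlated at 0.01 to 0.09, so the numbers were not taken as pairs. Over the named genes and all alternatives, 1939 log2 changes kept their side of the threshold, 111 lost a call, 2 gained one and 19 changed sign. Changes of sign were in values without a call, except Rim, at 0.39 log2 (adjusted p = 0.119) with averaged probe sets. Those of osk were -0.042 with centring, -0.080 after quantile normalization, -0.15 with averaged probe sets and -0.066 to 0.50 with single arrays left out. Rbp9 turned to -0.034, Obp57a to -0.0059 and CG30325 to -0.092 with centring. Acyp turned to 0.048 after quantile normalization and ran from -0.043 to 0.028 with single arrays left out, phyl ran from -0.24 to 0.017, and CG8837 from -0.66 to 0.46, with 0.32 under array weights. With pairs fitted alone the calls of BomS2, CG31517, CR11023, GABA-B-R3, GstD11, GstE14, Lsp2, mei-P26, Phae2, Pu, Rim, rumpel, Scp1, Taf12L and kl-2 were lost. Without the 2/v arrays there were 1312 calls A2663/2 against Canton S, 887 of them higher. The calls of BomS2, Cyp6a17, GstE14, kl-2, Lsp2, mei-P26, Nlg2, Or94a and Rim were lost in that fit. The causes were not tested. Low signal limits what dim probe sets can show.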
